A study of Mus musculus with 4 samples.

Results

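The colony-stimulating factors M-CSF (Csf1), GM-CSF (Csf2) and G-CSF (Csf3) and the receptor chains Csf1r, Csf2ra, Csf2rb and Csf3r were followed in mouse macrophages given lipopolysaccharide with or without immune complexes. All 7 genes were on the array, and every probe set annotated to exactly 1 of them was taken, which gave 14 of 45037 probe sets. Csf1 had 4 probe sets, Csf1r 3, Csf2ra and Csf2rb 2 each, and Csf2, Csf3 and Csf3r 1 each. All 14 had a mean signal above the filter of 69.64 and were tested. Of the 14, the Csf3 probe set had the largest difference, with 6.11 times the mean signal when immune complexes were added, and it fell short of the threshold of the test over the whole array. The receptor chains had signals on overlapping or nearly overlapping levels under both stimulations.

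Colony-stimulating factors are secreted proteins that drive the growth, survival and activation of myeloid cells. M-CSF signals through CSF1R, a receptor tyrosine kinase that defines the macrophage lineage. GM-CSF signals through a specific alpha chain (Csf2ra) and the common beta chain (Csf2rb), which IL-3 and IL-5 also use. G-CSF acts through the homodimeric receptor CSF3R, mainly on neutrophils and their precursors. Macrophages given LPS are a known source of G-CSF and GM-CSF, whose transcripts carry AU-rich elements that shorten their lifetime.

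The LPS plus immune complexes group held 2 arrays of bone marrow-derived macrophages that had been primed with 100 U/ml interferon-gamma and then, after a wash, given 10 ng/ml LPS and immune complexes together for 2 h. Immune complexes are antigens coated with antibody, which Fc gamma receptors bind. The LPS group held 2 arrays of macrophages primed at the same concentration and given the same dose of LPS alone for 2 h. The labels call the priming overnight in both groups and add a figure of 16 h for the LPS group only. The series calls the first type II and the second classical activation. In both groups the progenitors had grown for 7 days in medium with 20% L-cell conditioned medium, which is a source of M-CSF, and the cells were then kept overnight without it before stimulation. The labels give no strain, sex or age, do not name the antigen or antibody of the complexes, and include no unstimulated cells. Nothing in them ties a replicate to a culture or animal of its own, so the p-values reflect only the spread between these arrays, which may be technical.

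The deposited values are MAS 5.0 signals, with a trimmed mean near 500 on every array and a median of 155.4 and 68.2 for replicates 1 and 2 with LPS plus immune complexes, against 88.3 and 79.6 with LPS. Low signals were therefore raised on LPS plus immune complexes replicate 1, where the 5th percentile was 28.1 against 3.3 to 7.9 on the other arrays. The 11 macrophage markers (Adgre1, Cd14, Cd68, Itgam, Fcgr1, Mertk, Lyz2, Lamp1, Msr1, Cd33 and Aif1) were all tested, and their summed signal was 143916 and 174702 with LPS plus immune complexes and 170693 and 212421 with LPS. Summed signals of the marker lists of neutrophils, T cells, B cells, mast cells and basophils, stromal cells and dendritic cells lay between 254.8 and 1075.8 with LPS plus immune complexes and between 244.4 and 640.1 with LPS, with no single marker above 335.8. Each of these 6 sums was highest on LPS plus immune complexes replicate 1, and their part in the results was not tested. Only 4 arrays limit the precision throughout.

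Csf3, which encodes G-CSF, was the member with the clearest separation. Its signal was 737.8 and 884.8 with LPS plus immune complexes, against 164.9 and 100.6 with LPS. Both arrays with immune complexes lay far above both with LPS alone, by 4.47-fold to 8.80-fold in the 4 possible pairs. Without detection calls, the Csf3 signals with LPS alone are not shown to be above background, so these are ratios of signals. The means were 811.3 ± 103.9 with LPS plus immune complexes and 132.8 ± 45.5 with LPS (SD, n = 2 arrays each). On the log2(signal + 32) scale, where dim probe sets show smaller changes than in the signal itself, the log2 fold change of LPS plus immune complexes over LPS was 2.38 ± 0.44 (SE), with a 95% interval of 1.43 to 3.33. The limma adjusted p over all tested probe sets was 0.103, and the unadjusted p was 0.000152, so the difference did not pass the threshold of 0.05 after adjustment. By log2 fold change it was the 14th highest of 12891 tested genes, each taken by its brightest probe set.

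Csf3 was higher with immune complexes under every alternative, while the size of the difference moved with the pseudocount. Its log2 fold change was 2.64 with a pseudocount of 1 and 1.98 with 100. The place of Csf3 relative to the threshold also depended on the processing. Over the 11 alternatives without a replicate block its log2 fold change lay between 1.98 and 2.66. In those that kept all arrays, its limma adjusted p lay between 0.011 and 1. It passed with median centring of the arrays (adjusted p = 0.011) and without a filter on low signals (0.0367). It did not pass with quantile normalization (0.335), a pseudocount of 1 (0.0816) or 100 (0.146), a filter at the 60th percentile (0.143) or no variance trend. Calls over the whole array also rose in the passing settings, from 12 higher and 2 lower to 33 and 14 with median centring and 68 and 21 without a filter. In bulk RNA, more cells with the transcript and more transcript per cell cannot be told apart. Elane, a neutrophil granule protease, read 127.7 and 85.2 with LPS plus immune complexes and 16.3 and 19.9 with LPS. As a probe set it lay below the filter. The other 7 neutrophil markers on the array gave overlapping or lower readings with immune complexes. Both arrays with immune complexes also lay above both with LPS for the T cell markers Cd4 and Cd8a, Ms4a1 (B cell), Lum (stromal) and Cd209a (dendritic). They lay below for Hdc (mast cell and basophil) and Pdgfrb (stromal). The part of any of these cell types in the Csf3 signal was not tested.

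**Figure D1:**
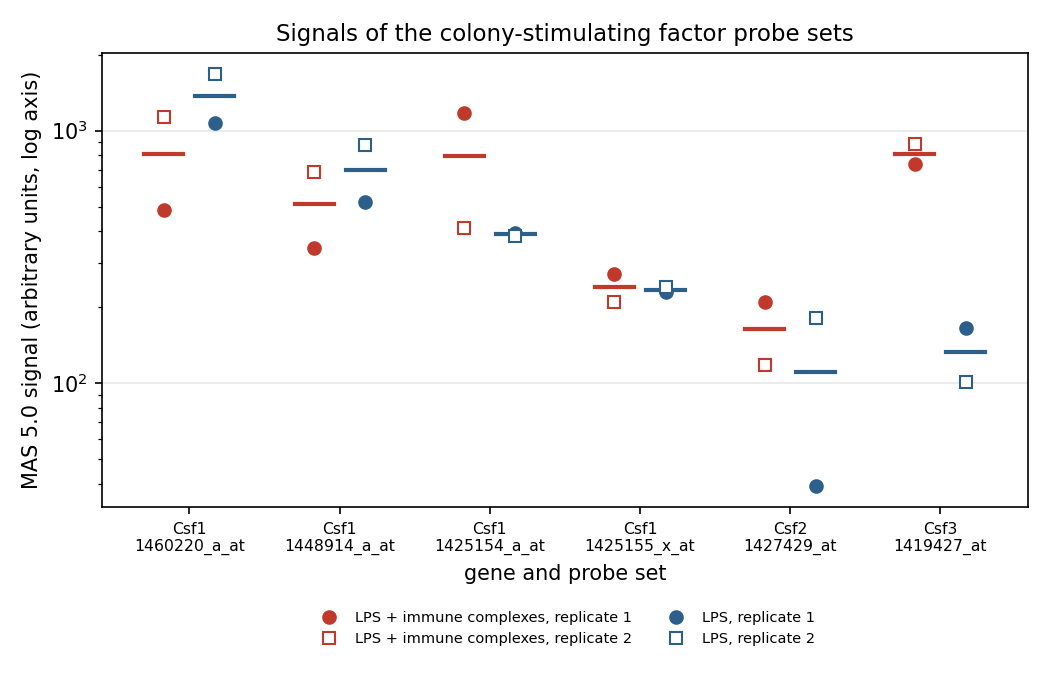
MAS 5.0 signals (log axis, arbitrary units) of the 6 ligand probe sets, with LPS plus immune complexes arrays in red left of the LPS arrays in blue, circles for replicate 1, squares for replicate 2 and a bar at each group mean. Csf3 lies at 737.8 and 884.8 with immune complexes, above 164.9 and 100.6 with LPS, while the Csf1 probe sets point in different directions.

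Csf2, which encodes GM-CSF, was dim and its groups overlapped. It read 210.1 and 117.7 with LPS plus immune complexes and 39.0 and 181.5 with LPS. The lower array with immune complexes thus lay between the LPS arrays, and LPS replicate 1 was the lowest of the 4. The log2 fold change was 0.63 ± 0.69 with a 95% interval of -0.88 to 2.14 and a limma adjusted p of 1, so that changes beyond 2-fold upward could not be told from no difference at this precision. The value was -0.17 without LPS replicate 1 and 1.42 without LPS replicate 2, so the LPS arrays set its direction. Il3, the neighbouring gene in RefSeq's gene order on GRCm38.p6, encodes another growth factor that uses a beta chain, and it read 59.1 and 7.2 with LPS plus immune complexes and 11.9 and 10.5 with LPS, below the filter.

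Csf1, which encodes M-CSF, gave no single answer, because its 4 probe sets disagreed. The brightest, 1460220_a_at, read 485.4 and 1133.6 with LPS plus immune complexes and 1070.4 and 1680.9 with LPS. The next, 1448914_a_at, annotated to the same accession, read 342.6 and 684.8 with LPS plus immune complexes and 521.6 and 880.8 with LPS. On both the lowest array was LPS plus immune complexes replicate 1 and the highest LPS replicate 2, and the groups overlapped. Their log2 fold changes were -0.82 ± 0.46 and -0.46 ± 0.46, with 95% intervals of -1.83 to 0.18 and -1.46 to 0.55. The value of 1460220_a_at was -0.24 without LPS plus immune complexes replicate 1, -0.51 without LPS replicate 2 and -1.41 without LPS plus immune complexes replicate 2.

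The other pair of Csf1 probe sets, which share a different accession, did not show this order. The probe set 1425154_a_at read 1179 and 410.4 with LPS plus immune complexes and 394.7 and 383.6 with LPS. Its groups did not overlap, but only LPS plus immune complexes replicate 1 stood apart. The log2 fold change was 0.80 ± 0.50, and it was 0.07 without that array and 1.52 without LPS plus immune complexes replicate 2. The probe set 1425155_x_at, whose suffix marks probes that may bind other transcripts, read 269.8 and 208.8 with LPS plus immune complexes and 228.8 and 239.7 with LPS. Its log2 fold change was 0.02 ± 0.45, against -0.22 after quantile normalization and -0.18 after median centring. No Csf1 probe set passed (limma adjusted p = 1 for each), and on the array where 1425154_a_at was highest the 2 brighter probe sets were lowest.

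Csf1r, the M-CSF receptor, was read by 3 bright probe sets whose groups all overlapped. The brightest, 1419872_at, gave 29152.6 and 26432.5 with LPS plus immune complexes and 28215.5 and 35375.3 with LPS. The probe set 1419873_s_at gave 15929.9 and 22701.7 with LPS plus immune complexes and 15985.1 and 25702.3 with LPS. For 1423593_a_at the readings were 9282.2 and 13149.9 with LPS plus immune complexes and 9981.6 and 12260.4 with LPS. The arrays of 1 group thus spread as widely as the groups did from each other. The log2 fold changes were -0.19 ± 0.22, -0.09 ± 0.29 and -0.0018 ± 0.28, and with quantile normalization they were 0.02, 0.09 and 0.14. All 3 intervals of 95%, the lowest bound at -0.72 and the highest at 0.61, lay inside a 2-fold change in either direction. That holds for the reported fit, as the 3 standard errors were 0.40 to 0.46 with no variance trend.

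The GM-CSF receptor is built from an alpha chain that binds the ligand and a beta chain that carries the signal. For the alpha chain Csf2ra, the brighter probe set 1420703_at read 2447.8 and 3728.1 with LPS plus immune complexes and 3596.2 and 3424.9 with LPS. Both LPS arrays lay between those with immune complexes, and the log2 fold change was -0.21 ± 0.34. The dimmer probe set 1420704_at read 253.1 and 162.7 with LPS plus immune complexes and 149.2 and 219.5 with LPS, a log2 fold change of 0.14 ± 0.50 against -0.09 after quantile normalization and -0.05 after median centring. Neither passed (limma adjusted p = 1 for both).

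For the common beta chain Csf2rb, the probe set 1455660_at read 9109.2 and 10625.9 with LPS plus immune complexes and 8352.2 and 10248.4 with LPS. The probe set 1421326_at read 4307.6 and 5009.7 with LPS plus immune complexes and 4287.4 and 3828.4 with LPS. The second did not overlap between groups, by a margin of 1.01-fold between the nearest arrays, while the first did. Their log2 fold changes were 0.09 ± 0.27 and 0.20 ± 0.30, with limma adjusted p = 1 for both, and they were -0.11 and -0.00085 with median centring. Csf2rb2, the neighbouring gene that encodes the IL-3-specific beta chain of mice, read 4951 and 6451.9 with LPS plus immune complexes and 4021.5 and 4492.3 with LPS, a log2 fold change of 0.41 ± 0.31 (limma adjusted p = 1). A further probe set is annotated to both beta chains and was left out of the 14, and it read 721.2 and 1249.7 with LPS plus immune complexes and 760.2 and 908.0 with LPS.

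Csf3r, the G-CSF receptor, had overlapping groups. It read 2334.4 and 2081.4 with LPS plus immune complexes and 2327.4 and 1496.2 with LPS. LPS replicate 1 lay between the arrays with immune complexes, and only LPS replicate 2 was lower. The log2 fold change was 0.24 ± 0.36 with a 95% interval of -0.55 to 1.03 and a limma adjusted p of 1, and it was -0.08 without LPS replicate 2.

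**Figure D2:**
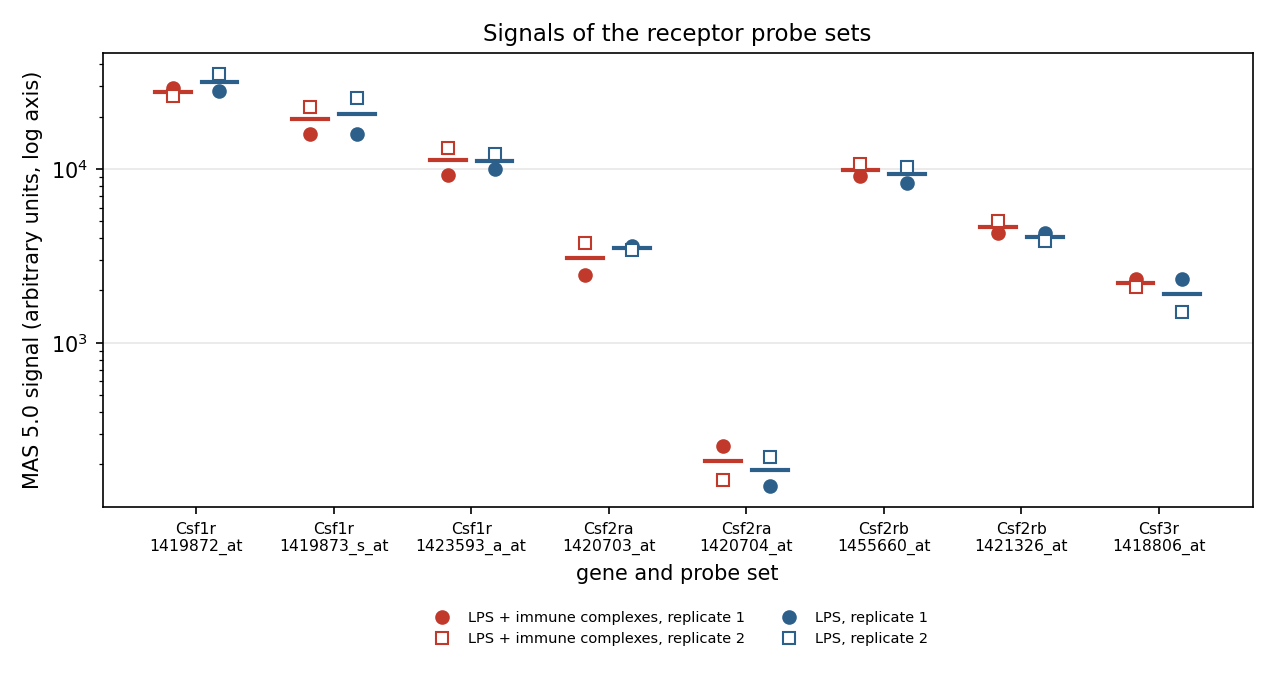
MAS 5.0 signals (log axis, arbitrary units) of the 8 receptor probe sets, with LPS plus immune complexes arrays in red left of the LPS arrays in blue, circles for replicate 1, squares for replicate 2 and a bar at each group mean. The groups overlap for 7 of the 8, and for Csf2rb 1421326_at the nearest arrays differ by 1.01-fold.

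Over the 14 probe sets, limma called 0 at an adjusted p under 0.05, where it called 0.0518% of all 27022 tested probe sets, 0.0444% as higher and 0.0074% as lower. At an unadjusted p under 0.05 it was 1 of 14, Csf3, against 2.81% of all. In every one of the 4 pairs of arrays, 1 of 14, again Csf3, was higher by 2-fold or more, against 1.27% of all, and 0 were lower by as much, against 0.326%. In 3 of 14 both arrays with immune complexes lay above both with LPS, namely Csf3, Csf1 1425154_a_at and Csf2rb 1421326_at, against 13.6% of all, and in 0 they lay below, against 12.0%. The median log2 fold change was 0.05 over the 14, from -0.82 to 2.38, and 0.07 over all tested probe sets.

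The ligand probe sets were spread over a wider range than those of the receptor chains, a comparison given as a description. In mean signal the ligand probe sets were dimmer than every receptor probe set except the dimmer one of Csf2ra. Ligand standard errors were 0.44 to 0.69, against 0.22 to 0.36 for the brighter receptor probe sets, in a fit whose variance trend follows the signal. With no variance trend the ranges overlapped, at 0.40 to 0.65 for ligands and 0.39 to 0.46 for receptors. Signal level and role therefore cannot be told apart here. Most ligand probe sets were of Csf1, and the top of the range was Csf3 alone. The 6 ligand probe sets had log2 fold changes from -0.82 to 2.38, and none of their 95% intervals lay within a 2-fold change in either direction. That held even for Csf1 1425155_x_at at 0.02, with an interval of -0.97 to 1.01. The 8 receptor probe sets ranged from -0.21 to 0.24, every interval held 0, and 6 of the 8 lay within a 2-fold change. The exceptions were the dim Csf2ra probe set and Csf3r, whose upper bounds were 1.23 and 1.03. The receptors were not shown to be equal under both stimulations, only that larger differences lie outside most of these intervals of the reported fit. For the brighter receptor probe sets the standard errors were larger with no variance trend (0.39 to 0.46) and with median centring (0.46 to 0.55). These bounds therefore depend on the processing. Among the macrophage markers 8 of 11 had log2 fold changes below 0, with a median of -0.28 and a range of -1.03 to 0.16, and this shift stood beside Csf1r without having been tested as its source.

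**Figure D3:**
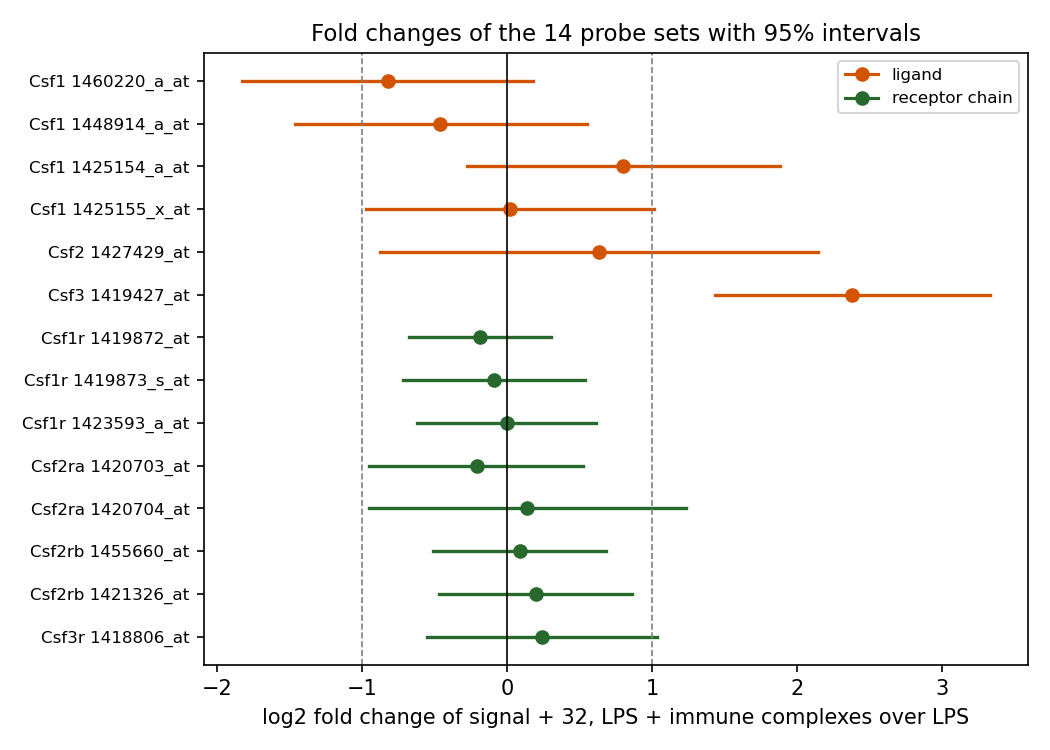
Log2 fold change of signal + 32, LPS plus immune complexes over LPS, for each of the 14 probe sets, with points for limma's estimate and lines for its 95% interval, ligands in orange and receptor chains in green, and dashed lines at a 2-fold change. Of all 14, the Csf3 interval, from 1.43 to 3.33, is the one that does not hold 0.

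Genes around the colony-stimulating factors were described in 6 lists of 98 distinct tested genes. The lists were drawn up with earlier results of these data known, so their counts are a description and no support for a change in them. None of the 98 passed (limma adjusted p under 0.05, against 0.0621% of 12891 genes), 11 had an unadjusted p under 0.05, against 3.13% of genes, and in all 4 pairs 2 were higher by 2-fold or more and 1 was lower by as much, against 1.28% and 0.326% of genes. The 2 higher genes were Zfp36l2 and Fosl1, and the lower one was Ccnd2. The median log2 fold change over the 98 was -0.07, against 0.05 over all genes.

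Of cytokines and receptors related to the family, 9 were tested, with a median log2 fold change of 0.41 and both arrays with immune complexes above both with LPS in 3 (13.2% of all genes). Kitl, the ligand of the receptor Kit, read 2617.8 and 1819.2 with LPS plus immune complexes and 1246 and 656.7 with LPS, a log2 fold change of 1.24 ± 0.41. Il6st encodes gp130, the signal chain of the IL-6 family, and read 1079.6 and 1505.8 with LPS plus immune complexes and 504.9 and 693.1 with LPS, a log2 fold change of 1.07 ± 0.40. Both had limma adjusted p = 1. Il34, the other ligand of CSF1R, read 160.9 and 31.8 with LPS plus immune complexes and 97.6 and 80.1 with LPS, and Il5 read 146.3 and 56.0 with LPS plus immune complexes and 15.1 and 100.0 with LPS. Both were dim and overlapped between the groups.

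Genes that carry the receptor signal had log2 fold changes with a median of -0.17, 15 of the 21 tested below 0. Jak2, the kinase bound to the common beta chain, read 5070.3 and 8661.5 with LPS plus immune complexes and 9934.7 and 10203.2 with LPS, a log2 fold change of -0.60 ± 0.31. Shc1, an adaptor protein, had 0.56 ± 0.40, and Pik3cd, a PI3 kinase subunit, had 0.88 ± 0.81. Pik3cd read 8391.1 and 751.0 with LPS plus immune complexes and 1927.6 and 960.3 with LPS, so that its value rests on LPS plus immune complexes replicate 1. Both arrays with immune complexes lay below both with LPS in 5 of the 21 (13.1% of all genes) and above in 2 (13.2% of all genes).

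Feedback regulators and response genes had a median of -0.04 over 20 tested. Ccnd2, which encodes cyclin D2, a driver of entry into the cell cycle, read 1350.3 and 3982.9 with LPS plus immune complexes and 8403.6 and 11203.5 with LPS, a log2 fold change of -2.05 ± 0.44 (limma adjusted p = 0.223). Myc, a growth regulator, read 505.6 and 877.5 with LPS plus immune complexes and 188.8 and 510.6 with LPS. Cish, a STAT5-induced inhibitor of cytokine signalling, read 1443.5 and 2640.3 with LPS plus immune complexes and 2454.2 and 4370.8 with LPS. The groups of Myc and Cish overlapped, with log2 fold changes of 1.01 ± 0.51 and -0.74 ± 0.41.

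Regulators of AU-rich transcripts had a median of 0.15 over 14 tested. In 4 of the 14 both arrays with immune complexes lay above both with LPS, against 13.2% of all genes, and in 1 below, against 13.1%. Zfp36l2, an RNA-binding protein that promotes decay of AU-rich transcripts, read 5326.5 and 4568 with LPS plus immune complexes and 1522.7 and 1905.8 with LPS. Its arrays with immune complexes were well above those with LPS, with a log2 fold change of 1.52 ± 0.33 and limma adjusted p = 0.225. Its relatives Zfp36 and Zfp36l1 had log2 fold changes of 0.27 and 0.42, and both are named here after their values were seen. Tia1, which represses translation of such transcripts, had 0.51 ± 0.46, and Khsrp, another decay factor, had -0.54 ± 0.56, with adjusted p = 1 for both.

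Transcription factors known to act on the Csf2 and Csf3 promoters lay on both sides of 0, with a median of -0.06 over 23 tested. The Jun, Fos and Batf families, whose proteins form AP-1, were split, with 4 of their 8 tested genes above 0 and 4 below. Fosl1 read 1053.2 and 609.5 with LPS plus immune complexes and 201.8 and 180.7 with LPS, a log2 fold change of 1.90 ± 0.44 (limma adjusted p = 0.262). Fosb had 1.54 ± 0.60, Fos 1.33 ± 0.42 and Jun 1.03, while Junb had -0.06, Jund -0.14, Fosl2 -0.54 and Batf -0.60. None of these passed, and the grouping of these 8 genes was chosen after their values were seen. The groups of Junb, Jund and Batf overlapped. Atf3 of the same list, left out of the 8, had 0.60 ± 0.24 and did not pass either. The NF-kB subunits Rela, Relb, Rel and Nfkb2 had values from -0.69 to -0.06, with overlapping groups in each.

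Genes for Csf1r transcription and shedding had a median of -0.09 over 14 tested. In 5 both arrays with immune complexes lay below both with LPS, against 13.1% of all genes, and in 2, Runx1 and Ets2, above, against 13.2%. Tfec, a macrophage transcription factor of the MiT family, read 1616.5 and 1869.1 with LPS plus immune complexes and 3537.1 and 3057.4 with LPS, a log2 fold change of -0.91 ± 0.33. Irf8, a factor of the monocyte lineage, read 8089.4 and 12960.5 with LPS plus immune complexes and 15783.5 and 17641 with LPS, a log2 fold change of -0.70 ± 0.29. Timp3, an inhibitor of the protease that sheds CSF1R, read 346.8 and 54.6 with LPS plus immune complexes and 72.4 and 77.9 with LPS, so that 1 array was high. The limma adjusted p was 1 for all 3, and Adam17, the shedding protease itself, had -0.11.

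**Figure D4:**
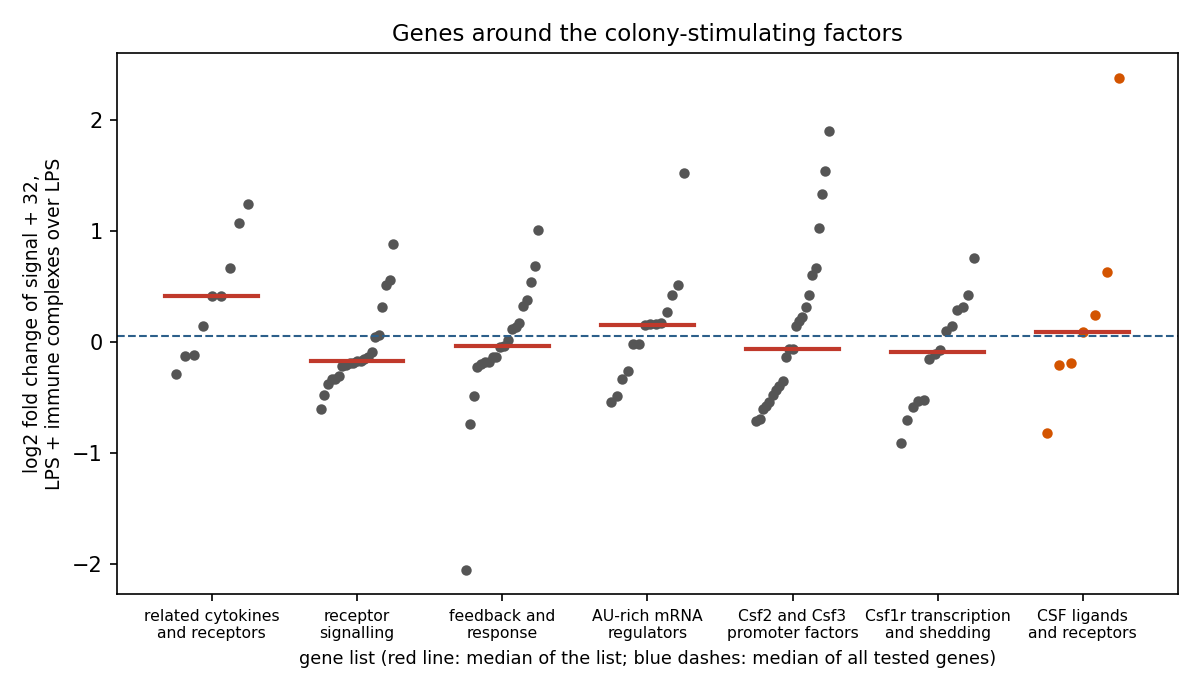
Log2 fold change of signal + 32, LPS plus immune complexes over LPS, for each tested gene of the 6 lists (grey) and for the 7 colony-stimulating factor and receptor genes by their brightest probe set (orange), with a red line at each median and blue dashes at the median of all tested genes, 0.05. Csf3 at 2.38 is the highest point and Ccnd2 at -2.05 the lowest.

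The genes with the array pattern nearest to each member were found by Euclidean distance between log2(signal + 32) profiles over the 4 arrays, each centred on its own mean, as a description only. For Csf3 they were Vasn, Gprc5a and Plagl1 at distances of 0.24, 0.40 and 0.43, against a median distance of 2.52 to all genes. Vasn, a membrane protein that binds TGF-beta, read 416.2 and 565.7 with LPS plus immune complexes and 111.7 and 58.1 with LPS. Gprc5a, an orphan receptor, read 494.5 and 735.2 with LPS plus immune complexes and 156.7 and 95 with LPS. Plagl1, a zinc finger transcription factor, read 356.4 and 415.9 with LPS plus immune complexes and 108.0 and 40.2 with LPS. As with Csf3, their 4 arrays separated fully by stimulation and LPS replicate 2 was the lowest, and their limma adjusted p lay between 0.242 and 0.457.

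For the other members the nearest patterns were those of arrays that differed little or did not follow the stimulation. They were Olfml3, Fkbp8 and Bcl2l12 for Csf1 by its brightest probe set, at distances of 0.12 to 0.15, and Dnajc27, Parpbp and Mybpc3 for Csf2, at 0.03 to 0.20. They were Phkg2, Nme1 and Smim1 for Csf1r, 4933427D14Rik, Hspg2 and Cox6b2 for Csf2ra, Snhg8, Gpd1l and Mlec for Csf2rb and Kdm5c, Ddx27 and Atmin for Csf3r, all at 0.03 to 0.05. The groups overlapped for each of these 18 genes. Psmd3 and Med24, the protein-coding genes on either side of Csf3 in RefSeq's gene order on GRCm38.p6, had log2 fold changes of -0.48 ± 0.39 and 0.67 ± 0.44 with limma adjusted p = 1 for both. Med24, a Mediator subunit, read 497.5 and 372.8 with LPS plus immune complexes and 309 and 215.3 with LPS, so that it too separated the groups, by a smaller margin.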

How the data were processed

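Total RNA of 4 macrophage samples was hybridised to a mouse Affymetrix array. The deposited values are linear intensities per probe set, and the submitters' processing notes name MAS 5.0, which scales each array as a whole. No genome build is given for the arrays, so no coordinates are printed, and gene order was taken from RefSeq on GRCm38.p6. At most 74 values were identical between any pair of arrays.

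Groups and replicate numbers came from the sample titles. The 64 controls and probe sets with a mean signal under the 40th percentile (69.64) were left out, and log2(signal + 32) of 27022 probe sets was fitted with lmFit and eBayes of limma 3.58.1 under R 4.3.3, with a variance trend, no block and a two-sided test with Benjamini-Hochberg adjustment. Fold counts over the 4 pairs use untransformed signals. Genes were named by GEO's platform annotation, where 34945 probe sets name 1 gene, 932 several and 9160 none, and 34741 gene IDs matched RefSeq's table of GRCm38.p6. Cell type markers and neighbouring genes took their brightest probe set, tested or not. Every other gene outside the 7 took its brightest tested probe set. The method was tested on simulated data with independent normal spread, which lack the differences in low signals seen between these arrays.

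The genes, lists, tests and alternatives were chosen with earlier results of these data known. Named were the 7 genes with every probe set, 3 genes of nearest pattern for each, the 3 genes of largest absolute fold change per list (or those past the threshold), and Il3, Il34 and Csf2rb2. Other genes named were chosen after their values were seen. Alternatives were quantile normalization, median centring, pseudocounts of 1 and 100, no filter and the 60th percentile, no variance trend, the replicate number as a block (also with quantile normalization), an adjusted p under 0.1, a 3-fold count, and leaving out each array, which takes a lone array's spread from the other group.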

Additional observations from a re-analysis of the deposited data

How the results depend on the processing

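Of 181 recomputed fold changes of the 14 probe sets, 147 kept their sign and their side of the threshold, 6 newly passed and 28 changed sign. The median log2 fold change of all tested probe sets was 0.07 in the reported fit, against -0.03 after quantile normalization and -0.13 after median centring, so small values follow the scaling. The cause was not tested for any change below. Dim probe sets are limited most, since no detection calls were used.

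Csf3 alone made the number of the 14 probe sets called higher 1 in place of 0, with median centring, without a filter, with the replicate block (log2 fold change 2.38, adjusted p = 7.23e-08), with quantile normalization plus the replicate block, and without LPS replicate 1 (range 0 to 1 over the left-out arrays). Quantile normalization plus the replicate block also called 1 lower, Csf1 1460220_a_at at -0.90 with adjusted p = 0.0351. The labels do not say whether arrays of the same replicate number belong together. Over 27022 probe sets, deviations from the group mean had a correlation of 0.38 between arrays of the same number, and its source was not tested. The blocked fits had infinite prior degrees of freedom (1 spread trend for all probe sets). So had those with median centring and without LPS replicate 1 or LPS replicate 2. The block changed no other call among the 14.

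Of all probe sets, 12 were called higher and 2 lower. The counts were 0 and 0 with quantile normalization and without the variance trend, 33 and 14 with median centring, 20 and 3 with a pseudocount of 1, 6 and 0 with 100, 68 and 21 without a filter, 4 and 0 with the 60th percentile, 32 and 5 at adjusted p under 0.1, 404 and 267 with the replicate block, and 537 and 366 with quantile normalization plus the block. Leaving out an array gave 0 to 77 higher and 0 to 32 lower, with 0 without either LPS plus immune complexes array and 74 and 77 higher when LPS replicate 1 or 2 was dropped. Among the list genes 0 were called, against 1 higher and 1 lower without a filter, 0 and 1 with median centring, 9 and 5 with the replicate block, 12 and 7 with quantile normalization plus the block, and 0 to 1 in each direction without an array.

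Leaving out an array leaves 2 pairs, which are more easily one-sided. Then 1 to 2 of the 14 were at least 2-fold higher (2 without LPS plus immune complexes replicate 2 or LPS replicate 2) and 0 to 1 at least 2-fold lower (1 without LPS plus immune complexes replicate 2). With both groups apart, 4 to 7 in place of 3 were higher and 0 to 5 in place of 0 lower, namely 6 and 2 without LPS plus immune complexes replicate 1, 7 and 5 without its replicate 2, 4 and 4 if LPS replicate 1 is left out, and 6 and 0 if its replicate 2 is. The lower count was 1 after quantile normalization and 2 after median centring.

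Signs turned for Csf1 1425155_x_at (-0.22 with quantile normalization, also with the block, -0.18 with median centring, -0.14 to 0.18 without an array), Csf1 1448914_a_at (-0.92 to 0.01 without an array), Csf2 (-0.17 to 1.42), Csf1r 1419872_at (0.02 with quantile normalization, also with the block), Csf1r 1419873_s_at (0.09 likewise, -0.43 to 0.25 without an array), Csf1r 1423593_a_at (0.14 likewise, -0.25 to 0.25), Csf2ra 1420703_at (-0.51 to 0.09), Csf2ra 1420704_at (-0.09 with quantile normalization, also with the block, -0.05 with median centring, -0.13 to 0.42), Csf2rb 1455660_at (-0.11 with median centring, -0.06 to 0.24), Csf2rb 1421326_at (-0.00085 with median centring) and Csf3r (-0.08 to 0.55). Csf3 and the remaining Csf1 probe sets kept their sign in every alternative run.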
